A study of Mus musculus with 14 samples.

Results

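Genes for the core machinery and the regulators of pre-mRNA splicing were followed through cultured, freshly isolated and immunoprecipitated material of mouse neural stem cells. Members were all genes whose symbol begins with Srsf and a digit, Hnrnp, Snrp, Sf3a or Sf3b and a digit, or U2af. Of 60 matching symbols, 5 pseudogenes were left out, so that 55 genes remained of 55450 identifiers with a symbol. They comprise 11 SR protein genes, 20 hnRNP genes, 12 genes for Sm and other snRNP proteins, 9 genes for SF3 subunits and 3 U2AF genes. The culture tables list all 55 and the fresh and RIP tables list 54, without Snrpn.

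Splicing removes introns from pre-mRNA on the spliceosome, which is built from small nuclear RNAs and their proteins. Sm proteins form the ring around the spliceosomal small nuclear RNAs, U2AF recognises the 3′ splice site, and SF3A and SF3B belong to the U2 particle that engages the branch point. SR proteins mostly favour the use of nearby exons, whereas hnRNP proteins coat nascent RNA and often act against them, and both classes also serve in mRNA export, stability and translation.

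The study compared active with quiescent neural stem cells of the adult subventricular zone, Aplp1 knockout with wildtype cells, and RNA bound by CPEB4 with its controls. Wildtype cells were cultured with BMP4, which brings these cells into quiescence, or with the mitogen EGF, for 3 days per the labels, and each culture is 1 single-cell library. Freshly isolated, untreated cells came from wildtype controls and from APLP1-/- mice, 1 library per genotype, in which antibody-linked hash tags mark 3 mice each. RNA immunoprecipitation (RIP) was done on untreated neurospheres, which are floating cultures of these cells. Its 4 fractions have 2 libraries each: the input, the IgG control and the CPEB4 antibody fraction of wildtype cells, and the CPEB4 antibody fraction of cells labelled CPEB4-/-. Beyond "adult", no age is stated, and the kind of deletion is not given in the sources used. Nothing in the labels says that RIP replicates came from separate cultures, so their p-values measure the spread between these libraries, which may be technical.

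The cultures held 887 (BMP4) and 1410 (EGF) cells with 17313999 and 33603623 counts, the fresh libraries 2209 (wildtype) and 1879 (APLP1-/-) cells with 1133263 and 1227695 counts, and the RIP libraries between 10054346 and 17466296 counts. The wildtype and APLP1-/- fresh libraries shared 13 cell barcodes and the cultures 1. Aplp1 had 246 counts in the wildtype and 54 in the APLP1-/- library. Cpeb4 was not lower in the RIP libraries labelled knockout (231 and 250 CPM scaled by TMM) than in the wildtype CPEB4 precipitates (225 and 81.2 CPM), so these are called libraries labelled knockout. Slc1a3, the glial glutamate transporter of these stem cells, was present in every kind of material (1254 CPM with BMP4, 424 CPM with EGF, 5068 and 3838 counts in the fresh libraries). Nes, the filament gene of dividing neural stem cells, stood at 8.49 and 179 CPM in the BMP4 and EGF libraries and had 6 and 3 counts in the fresh libraries.

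Promoters of the members were examined because most members were lower together in the BMP4 culture, as described below. RefSeq (GRCm38.p6) gave 66 promoter windows for 48 of the 55 genes, each from 250 bases before to 50 bases after a start. The ETS core CCGGAAG or its reverse complement CTTCCGG occurred in 21 of these 66 windows (31.8%), against 2910 of 32851 windows of the same length (8.86%). The 21 windows belong to 16 genes. Windows of a gene can overlap, so that the same site was counted repeatedly for Srsf4 and for Sf3b2. All windows were not matched to the member windows in base content. Other letters searched on both strands were the GC box GGGCGG (68.2% of member windows, 35.7% of all), the E2F core TTCCCGC (18.2% and 4.60%), the E-box CACGTG (10.6% and 7.15%), CCAAT (45.5% and 37.4%), TATAAA (10.6% and 13.6%), the NRF1 core GCATGCGC (6.06% and 2.71%) and the YY1 core AAGATGG (3.03% and 6.34%). No motif contains another, although matches can overlap in a window, and a match is a description of the sequence, not a binding site.

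The following windows, on the gene's own strand, show the ETS letters in capitals in promoters of SR, hnRNP, Sm or snRNP, and SF3 genes (no U2AF window held them), from members far lower with BMP4 (Srsf7, Hnrnpf, Snrpg, Sf3a3) to 1 that was not (Srsf5).
Snrpg, chr6:86371384-86371413, plus strand: tggcgacgcaaCCGGAAGcgtggctctggt
Snrpc, chr17:27840037-27840066, plus strand: tagggcagaggCCGGAAGcggaagtcctac
Sf3a3, chr4:124714760-124714789, plus strand: cccccaagacaCTTCCGGgacacgcggaac
Srsf7, chr17:80207505-80207534, minus strand: gcaggagaccgCCGGAAGgccacaggttta
Hnrnpf, chr6:117900279-117900308, plus strand: ggggctgcacaCCGGAAGtccctgtgcttc
Srsf5, chr12:80945465-80945494, plus strand: ctggcaccgccCCGGAAGtgacgccaggac
The 16 members with the ETS letters had a median log2 ratio of -0.77 between the BMP4 and EGF cultures, and members with a window but without the letters -0.51. For the E2F core these medians were -0.55 and -0.66, for the E-box -0.83 and -0.63, and for TATAAA -0.82 and -0.63. Srsf7 and Srsf5, which both carry the ETS letters, differed widely in that ratio.

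The first comparison set the BMP4 culture against the EGF culture. Nearly all members were lower with BMP4: 50 of 55 had a log2 ratio below 0, as did 6400 of the 14502 genes with 10 or more counts. The member median was -0.66 (-0.80 under TMM scaling, which shifts each gene by -0.14). Together the members made up 0.656% of counts with BMP4 and 1.26% with EGF. At 2-fold or more, 18 members had more counts with EGF, where 15.4% of the 14502 genes with 10 or more counts passed the same fold, and 0 had more with BMP4, where 23.1% of all genes did. The median over all genes was 0.15. With 1 library per culture no test between them is possible, and the intervals below are exact 95% intervals that cover counting error only. By these intervals 48 members were higher with EGF, 3 were higher with BMP4 (Hnrnph2, Snrpn and U2af1l4) and 4 had an interval that reached 1. High counts make such intervals narrow, and the share of all genes past the same rule was not counted.

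The SR proteins split widely. Srsf7, Srsf3 and Srsf2 were lowest with BMP4 relative to EGF. Srsf7 stood at 64.3 CPM with BMP4 against 203 CPM in the EGF library, giving a ratio of 0.316 (0.297 to 0.337). Srsf3, the smallest classical SR protein and an adaptor of mRNA export, had 181 and 529 CPM, a ratio of 0.343 (0.330 to 0.356). Srsf2, also known as SC35 and a mark of nuclear speckles, had 196 and 540 CPM, a ratio of 0.363 (0.349 to 0.376). At the other end of the family, Srsf5 had 225 and 216 CPM, with a ratio of 1.04 (1.000 to 1.08), or 0.06 on the log2 scale and -0.08 under TMM scaling, so that its direction turns with the scaling. Srsf6 lay between them at 0.826 (0.793 to 0.860), and Srsf12 had 43 and 69 counts, a ratio of 1.21 whose interval (0.807 to 1.80) allows a difference either way. A 2-fold difference toward EGF was reached by 5 of the 11 SR genes, beside 15.4% of all genes, and the family median was -0.63.

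Among the hnRNP genes, Hnrnpa1 and Hnrnpab had the widest differences of all members. Hnrnpa1, a shuttling protein that represses exons, stood at 254 CPM in the BMP4 library and 988 CPM in the EGF library, a ratio of 0.257 (0.249 to 0.265). Hnrnpab followed with 129 and 498 CPM and a ratio of 0.258 (0.247 to 0.270). Hnrnpf, which binds G-rich RNA, had 187 and 406 CPM (ratio 0.461, 0.444 to 0.479). The family was uneven: 4 of 20 genes reached a 2-fold difference, all toward EGF, a share near the 15.4% of all genes. The family median was -0.47, and Hnrnpa0 (122 and 124 CPM) and Hnrnph3 (36.3 and 38.8 CPM) had intervals that reached 1. Hnrnph2, the paralog of Hnrnph1, was the only hnRNP gene with a higher level with BMP4, at 60.7 against 45.8 CPM, a ratio of 1.33 (1.22 to 1.43). Hnrnpa1 has pseudogene copies that resemble it closely, so its counts may hold or lack reads of these copies and are uncertain to that extent.

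Genes for Sm and snRNP proteins were lower with BMP4 as a block, with a median of -1.28. Of these, 7 of 12 were lower at 2-fold or more and 11 of 12 at 1.5-fold or more. Among all genes 15.4% were 2-fold or more lower with BMP4, and 3563 of 14502 were 1.5-fold or more lower. Snrpd1 had 95.5 CPM in the BMP4 library and 316 CPM in the EGF library, a ratio of 0.303 (0.287 to 0.319). Snrpd3 (52.0 and 163 CPM, ratio 0.318, 0.296 to 0.342) and Snrpf (242 and 753 CPM, ratio 0.322, 0.312 to 0.333) were close to it, and all 3 encode parts of the Sm ring. The U1 and U2 proteins Snrpa (0.565, 0.517 to 0.616) and Snrpb2 (0.633, 0.593 to 0.674) showed smaller differences. Snrpn was the exception. It encodes SmN, the paralog of SmB that is known from neural tissue and is expressed from the paternal allele, and it had 123 CPM with BMP4 against 96.1 CPM with EGF, a ratio of 1.28 (1.21 to 1.35). Snrpb, which encodes SmB, went the other way, with 113 CPM against 266 CPM and a ratio of 0.422 (0.402 to 0.444).

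The 9 SF3 genes all had ratios below 1, with a family median of -0.63. Sf3a3 had 10.2 and 24.1 CPM and the lowest ratio of them (0.422, 0.357 to 0.498), followed by Sf3a2 (0.548, 0.473 to 0.632) and Sf3b5 (0.561, 0.537 to 0.586). Sf3b1, the large subunit that contacts the branch point region, was the least different at 77.8 and 86.7 CPM (0.897, 0.840 to 0.957), next to Sf3b2 (0.758, 0.711 to 0.808) and Sf3a1 (0.706, 0.620 to 0.803). The 3 U2AF genes went apart. U2af1, the small subunit, had 94.7 and 198 CPM (0.478, 0.453 to 0.505), U2af2, the large subunit, 68.4 and 95.5 CPM (0.717, 0.670 to 0.767), and U2af1l4, a paralog of the small subunit, 27.9 and 17.1 CPM (1.63, 1.44 to 1.84), the highest ratio among the members.

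**Figure D1:**
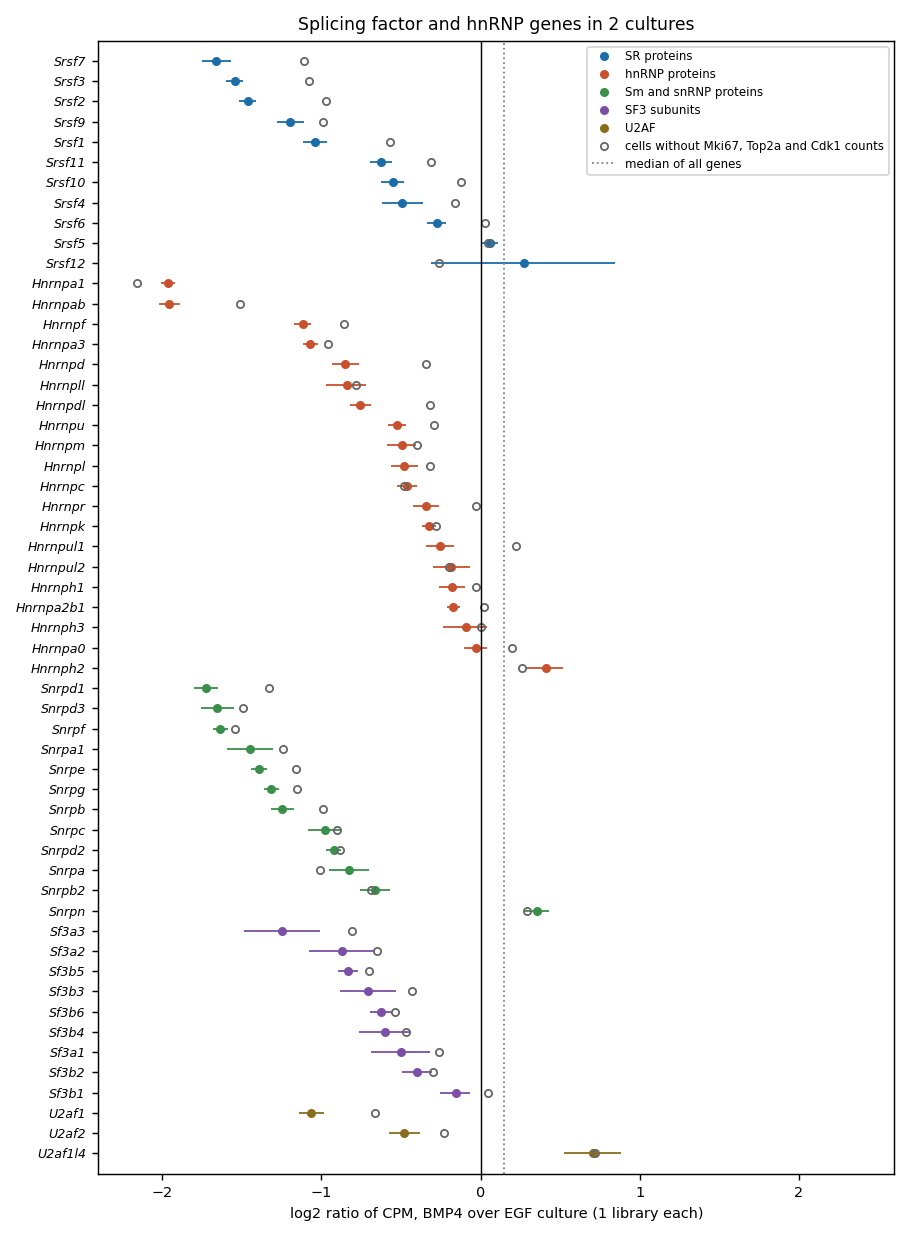
Log2 ratio of CPM between the BMP4 and EGF cultures for each of the 55 members, ordered within families. Filled points are all cells with exact 95% counting intervals, open points are cells without counts of Mki67, Top2a and Cdk1, and the dotted line is the median of all genes (0.15). Most points lie left of 0, with Hnrnpa1 and Hnrnpab farthest left and U2af1l4 farthest right.

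The cultures also differed in the share of dividing cells. Mki67 stood at 11.1 CPM in the BMP4 and 103 CPM in the EGF library. Cells without a count of Mki67, Top2a and Cdk1 made up 80.9% (718 cells) of the BMP4 and 21.1% (298 cells) of the EGF culture. Such cells may still be in cycle, which was not tested. Within these cells the members had a median of -0.47, with 45 of 55 below 0, as were 5518 of 13280 genes. At 2-fold or more, 11 members were higher with EGF, where 11.9% of all genes passed. Snrpf (-1.54 within these cells, -1.63 in all) lay close to its value in all cells, and Hnrnpa1 (-2.16 and -1.96) further from 0. Srsf10 (-0.12 and -0.55), Hnrnpd (-0.34 and -0.85) and Hnrnpdl (-0.32 and -0.75) moved toward 0. Directions turned for Hnrnpa0 (0.20), Hnrnph3 (0.00), Sf3b1 (0.05), Srsf6 (0.03) and Srsf12 (-0.26) among the genes described above.

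Within the EGF culture, cells with a count of any of the 3 cycle genes were compared with cells without. Members were mostly higher in the cells with such a count, with 48 of 55 above 0, as were 52.8% of all genes. Their median log2 ratio was 0.29 (all genes 0.03), and 0 members reached 2-fold, where 6.01% of all genes did. Srsf7 (0.80), Hnrnpd (0.73), Hnrnpab (0.69) and Srsf2 (0.67) had the highest ratios. Snrpd2 (0.05), Hnrnpc (0.01), Srsf5 (-0.03) and Hnrnpa1 (-0.08) were nearly level. The Sm and snRNP genes had a median of 0.20 here. Cells with a panel count were deeper, with a median of 23720 counts against 20163, and the part of depth in these ratios was not tested.

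Other splicing genes, a list of 102 genes for snRNP, Prp19 complex, LSm and regulatory proteins, were also more often lower with BMP4. Of the 102, 72 had a log2 ratio below 0, as did 6400 of 14502 genes. A 2-fold or wider difference toward EGF was reached by 14, a share near the 15.4% of all genes. Toward BMP4 it was reached by 5, where 23.1% of all genes did. Their median was -0.38, against -0.66 for the members. Within cells without panel counts their median was -0.12.

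Freshly isolated cells were divided into classes by clustering on genes other than the members. Clusters named quiescent-like by markers that quiescent stem cells share with astrocytes (Aqp4, Slc1a2, Gja1, Aldoc and others), so that astrocytes cannot be told apart from them, held 1124 wildtype and 689 APLP1-/- cells, and the cluster named active-like held 302 and 405. The largest quiescent-like clusters showed all 15 of their marker genes and the active-like cluster all 13. Splicing genes were lower in the quiescent-like cells: the median log2 ratio of quiescent-like over active-like cells was -1.30 in the wildtype and -1.23 in the APLP1-/- library, where all genes had medians of -0.03 and -0.09. Of 52 members with 10 or more counts, 36 and 44 were 1.5-fold or more higher in active-like cells, and 37.4% and 38.0% of all genes passed that fold. Classes come from clusters of the same cells, so these values are a description without a test. The classes differed in depth (median 887 against 323 counts per cell in the wildtype library), and the part of depth or of free RNA was not tested.

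By their counting intervals, 31 of 52 members were higher in active-like cells in both libraries, and 2 were higher in quiescent-like cells in both. The same rule was met by 17.6% and 17.7% of the 6520 genes with enough counts. Hnrnpa1 was at 589 CPM in quiescent-like and 5200 CPM in active-like wildtype cells, an active-like over quiescent-like ratio of 8.84 (7.75 to 10.1), and 8.29 (7.15 to 9.66) in the APLP1-/- library. Hnrnpab, at 42.7 and 629 CPM, had ratios of 14.7 (9.20 to 25.0) and 7.01 (4.93 to 10.3). Hnrnpa0, whose interval reached 1 in the cultures, had ratios of 4.69 (3.92 to 5.63) and 3.67 (3.04 to 4.45). Snrpb had ratios of 5.01 (3.02 to 8.67) and 5.85 (3.22 to 11.7), and Snrpe 13.7 (4.27 to 70.3) and 27.0 (4.59 to 1089). Those of Snrpe rest on few quiescent-like counts, 3 against 30 active-like in the wildtype and 1 against 43 in the APLP1-/- library. Hnrnpa1 and Hnrnpab thus had wide ratios both between the cultures and between the fresh classes.

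The exceptions were SR genes. Srsf5 was higher in quiescent-like cells, at 380 against 120 CPM in the wildtype library, with active-like over quiescent-like ratios of 0.317 (0.218 to 0.451) and 0.333 (0.250 to 0.441). Srsf2 was at 4780 CPM in quiescent-like and 3073 CPM in active-like wildtype cells, a ratio of 0.643 (0.596 to 0.693), and 0.840 (0.781 to 0.903) in the APLP1-/- library. Srsf2 thereby went against its cultures, where it was 2.76-fold higher (2.66 to 2.86) with EGF. Srsf7, which had the widest culture ratio of the SR genes, was level between these classes at 0.980 and 0.971 (0.606 to 1.58 in the APLP1-/- library). Srsf3 followed the general direction with 3.57 (2.67 to 4.83) and 4.83 (3.35 to 7.16).

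**Figure D2:**
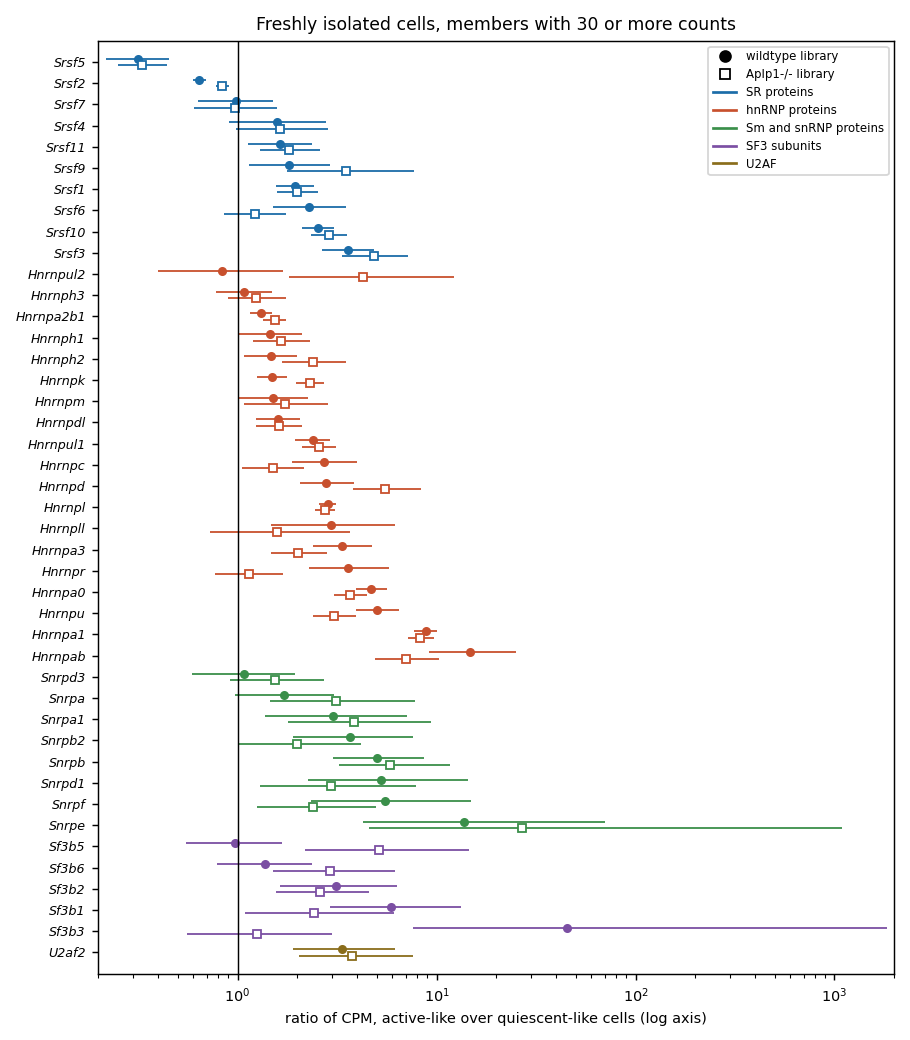
Ratio of CPM between active-like and quiescent-like fresh cells for members with 30 or more counts in these classes of each library, with exact 95% counting intervals on a log axis. Filled circles are the wildtype and open squares the APLP1-/- library. Points lie mostly right of 1, and Srsf5 and Srsf2 lie left of it in both libraries.

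Across the 52 members, 45 were lower with BMP4 and also lower in the quiescent-like cells of both fresh libraries, as were 27.3% of 6266 genes. Sizes agreed only loosely: over the 52 genes the log2 ratios of the cultures and of the fresh classes had Pearson's r of 0.38 in the wildtype and 0.36 in the APLP1-/- library (Spearman's rho 0.36 and 0.30), a description across genes that are not independent and share the libraries. Neuroblast-like cells lay closer to the active-like cells, with member medians of -0.53 and -0.55 relative to them (all genes -0.29 and -0.43). Hnrnpa1 stood at 4654 CPM and Hnrnpab at 689 CPM in neuroblast-like wildtype cells, near the active-like values, whereas Hnrnpl was at 1685 CPM there and 3847 CPM in active-like cells.

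Some fresh counts cannot be taken at face value. Counts of Snrpf and of its neighbour Ccdc38 correlated at 0.984 across cells, Hnrnpab and Phykpl at 0.784, Hnrnpa1 and Cbx5 at 0.348, and Hnrnpa2b1 and Cbx3 at 0.314. These members may therefore hold reads that were also counted for the neighbour. The clustering left out members and the gene of a pair with fewer counts. Ccdc38 (137 counts) and Cbx3 (21354) exceeded Snrpf (133) and Hnrnpa2b1 (2859) and could remain in it, so the classes may not be independent of these members. Snrpg had only 5 and 4 counts in the fresh libraries, against 4761 and 22979 in the cultures. Conversely, Srsf2 stood at 3912 and 3595 CPM in the wildtype and APLP1-/- libraries, against 196 and 540 CPM with BMP4 and EGF. Hnrnpl stood at 2267 and 2048 CPM, against 86.6 and 121 CPM. What lies behind these gaps was not tested.

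APLP1-/- and wildtype mice were compared with counts summed per mouse, over the cells that a hash tag gave to a mouse (82 to 239 per mouse). Among 1109 genes with enough counts, 21 members could be tested and 0 rose or fell by edgeR's quasi-likelihood test with Benjamini-Hochberg adjustment, where 0% of all genes were called either way. At an unadjusted p under 0.05 there were 61 genes, 1 of them a member, and DESeq2 called 1 gene, no member. Since the mice of a genotype share 1 library, an effect of library and of genotype cannot be told apart.

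Among the 8 members with most counts, Hnrnpk, a poly(C)-binding protein, had the smallest p. It stood at 455, 351 and 635 CPM in the wildtype mice and at 718, 807 and 1031 CPM in the APLP1-/- mice, without overlap, with a log2 fold change of 0.86 (SE 0.34) and an adjusted p of 0.863 by edgeR. Hnrnpl also did not overlap, at 2122, 1951 and 1737 CPM against 1404, 1440 and 1278 CPM, with a log2 fold change of -0.44 (SE 0.26) and an adjusted p of 1.000 by edgeR. Srsf2 ranged from 3082 to 5093 CPM in wildtype and from 4346 to 4791 CPM in APLP1-/- mice, and Hnrnpa1 from 1380 to 3133 CPM and from 1233 to 2352 CPM, so that the groups overlapped. Hnrnpa0 (0.00, SE 0.35), Hnrnpa2b1 (-0.23, SE 0.29), Hnrnpul1 (0.24, SE 0.34) and Srsf10 (0.09, SE 0.40) had log2 fold changes smaller than their standard errors.

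Over all cells of a library, Hnrnpk was 1.40-fold (1.28 to 1.53) and Hnrnpab 1.41-fold (1.23 to 1.61) higher in the APLP1-/- library, and Hnrnpl was at 0.903 (0.855 to 0.955) and Srsf2 at 0.919 (0.881 to 0.958) of the wildtype level, by counting error alone. Between mice, Hnrnpab had a log2 fold change of 0.05 (SE 0.56). Active-like cells made up 21.6% of that library and 13.7% of the wildtype library, and Top2a had 571 and 257 counts. The part of this difference in cell makeup was not tested.

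CPEB4 precipitates were compared with IgG, input and the precipitates labelled knockout in 1 fit of all 8 RIP libraries. CPEB4 binds cytoplasmic polyadenylation elements in the 3′ end of mRNAs and regulates their poly(A) tails and translation. No splicing gene rose or fell in the CPEB4 precipitate against IgG: 0 of 54 tested members passed, as did 0% of 17062 genes in either direction by edgeR's test. Unadjusted p-values under 0.05 were found for 1360 genes and 3 members (Sf3b5, Snrpb and U2af1l4, all lower), and DESeq2 called 0 members among the 12 to which it gave an adjusted p. With only these 2 groups fitted, 3 members were lower, where 2.58% of all genes were. The median log2 fold change of the members was -0.46, against 0.00 over all genes, and 47 of 54 were below 0.

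This direction depends on the scaling. The 10 genes with most counts took 3.92% and 4.50% of the inputs but between 32.0% and 64.2% of the precipitates, and TMM factors ranged from 0.4278 in an IgG library to 2.861 in an input. Scaled by library totals, the median over all genes moved from 0.00 to 1.02 and that of the members from -0.46 to 0.58, with 49 of 54 above 0 and again 0 called. A change of scaling moves all genes by a similar amount, so the distance of the members below the median of all genes hardly changed. As shares of all counts the members took 0.224% and 0.166% of the CPEB4 precipitates, 0.109% and 0.146% of the IgG precipitates, and 1.25% and 1.24% of the inputs.

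Against input, many splicing genes fell in the CPEB4 precipitate: 27 of 54 were lower, where 27.6% of all genes were, and 1 was higher, where 27.4% of all genes were (edgeR, adjusted p below 0.05). The member median was -1.10 and that of all genes -0.09. By library totals these medians were -2.58 and -1.57, with 48 members lower and 0 higher, and 7924 genes lower and 1089 higher in place of 4702 and 4678. Leaving out CPEB4 replicate 1 or 2, the member medians were -1.21 and -1.13, and those of all genes -0.13 and -0.10. With IgG against input 11 of 54 members were lower, a share near the 15.6% of all genes, and 1 was higher, where 18.2% of all genes were. The medians were -0.71 for members and -0.13 over all genes. Leaving out input replicate 1 or 2, the IgG medians were -0.83 and -0.82 for members and -0.10 and -0.15 over all genes. Leaving out IgG replicate 1 or 2, they were -0.68 and -0.91 for members and -0.14 and -0.24 over all genes. Both comparisons share the input libraries.

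The Sm and snRNP genes were lowest of the larger families in the CPEB4 precipitate, with a median of -1.82 against input. For IgG their median was -1.51. Of 11 genes, 9 were lower with CPEB4 and 4 with IgG, beside 27.6% and 15.6% of all genes. Snrpd2 had 47.1 and 47.0 CPM (TMM scaled) in the inputs, 13.5 and 14.1 CPM with IgG, and 6.59 and 4.12 CPM with CPEB4, a log2 fold change of -3.13 (SE 0.70, edgeR adjusted p = 0.00462) against input. Snrpb had 58.4 and 63.3 CPM in the inputs, 19.5 and 18.9 CPM with IgG and 7.89 and 8.39 CPM with CPEB4, a log2 fold change of -2.90 (SE 0.45, edgeR adjusted p = 0.00112). In both genes the wildtype fractions did not overlap under TMM scaling. By library totals the inputs still stood apart, whereas the IgG (5.77 and 7.81 CPM) and CPEB4 (6.89 and 3.91 CPM) values of Snrpd2 overlapped. Snrpg (-2.88, SE 0.64) and Snrpd1 (-2.22, SE 0.37) fell likewise against input. In the IgG precipitates Snrpd1 (-1.72, SE 0.37), Snrpb (-1.66, SE 0.43), Snrpb2 (-1.51, SE 0.50) and Snrpd3 (-1.32, SE 0.43) were lower than in input.

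Sf3b5, a small SF3B subunit from a gene of 734 bases, fell the most of all members. It had 32.9 and 39.7 CPM in the inputs, 9.30 and 7.53 CPM with IgG and 2.90 and 1.98 CPM with CPEB4, a log2 fold change of -3.89 (SE 0.75, edgeR adjusted p = 0.00251) for CPEB4 and of -2.11 (SE 0.70, edgeR adjusted p = 0.0426) for IgG. The SF3 family had 5 of 9 members lower with CPEB4, beside 27.6% of all genes. Sf3b1 had 91.4 and 60.2 CPM in the inputs and 62.8 and 64.6 CPM with CPEB4, a log2 fold change of -0.25 (SE 0.37) that did not pass. By library totals it was -1.74 (edgeR adjusted p = 0.0354), so that this call turns on the scaling. Sf3b4 was lower with IgG at -1.56 (SE 0.46, edgeR adjusted p = 0.0293).

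Among the SR genes 5 of 11 fell with CPEB4 and 3 with IgG, beside 27.6% and 15.6% of all genes. Srsf9 had 56.9 and 78.2 CPM in the inputs and 12.7 and 10.7 CPM with CPEB4, a log2 fold change of -2.53 (SE 0.62, edgeR adjusted p = 0.00744), and an adjusted p of 0.0536 by edgeR without CPEB4 replicate 2. Srsf2 had 119 and 137 CPM in the inputs, 56.5 and 41.8 CPM with IgG and 29.2 and 26.4 CPM with CPEB4 (-2.20, SE 0.51, edgeR adjusted p = 0.00569). Srsf6 (-1.39, SE 0.41) and Srsf7 (-1.24, SE 0.37) were among the 3 that fell with IgG.

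Of the 20 hnRNP genes, 6 were lower with CPEB4 and 2 with IgG, beside 27.6% and 15.6% of all genes. Hnrnpab had 277 and 434 CPM in the inputs, 112 and 83.3 CPM with IgG, and 55.2 and 51.9 CPM with CPEB4, a log2 fold change of -2.73 (SE 0.61, edgeR adjusted p = 0.00480) for CPEB4 and -1.87 (SE 0.59, edgeR adjusted p = 0.0366) for IgG. Hnrnpa0 had 189 and 260 CPM in the inputs and 52.5 and 30.4 CPM with CPEB4 (-2.44, SE 0.85, edgeR adjusted p = 0.0330), a call that is lost whichever of these 4 libraries is left out, with adjusted p between 0.0605 and 0.164 by edgeR. Hnrnpa2b1 was lower with IgG at -1.40 (SE 0.42, edgeR adjusted p = 0.0311). Hnrnpa1 had 134 and 156 CPM in the inputs and 97.6 and 90.7 CPM with CPEB4 and did not pass.

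U2af1 was the 1 member called higher than input, in both precipitates, and is named after its values were seen. It had 12.8 and 12.0 CPM in the inputs, 24.9 and 29.8 CPM with IgG and 35.2 and 18.4 CPM with CPEB4, log2 fold changes of 1.14 (SE 0.39, edgeR adjusted p = 0.0462) and 1.11 (SE 0.38, edgeR adjusted p = 0.0324). By library totals the same changes were -1.35 and -0.35, so its direction turns with the scaling. The call against input is lost for CPEB4 without input replicate 1, input replicate 2 or CPEB4 replicate 1, and for IgG without any of its 4 libraries. Its paralog U2af1l4 went the other way, with 11.7 and 11.4 CPM in the inputs and 2.46 and 2.30 CPM with CPEB4 (-2.28, SE 0.49, edgeR adjusted p = 0.00394).

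**Figure D3:**
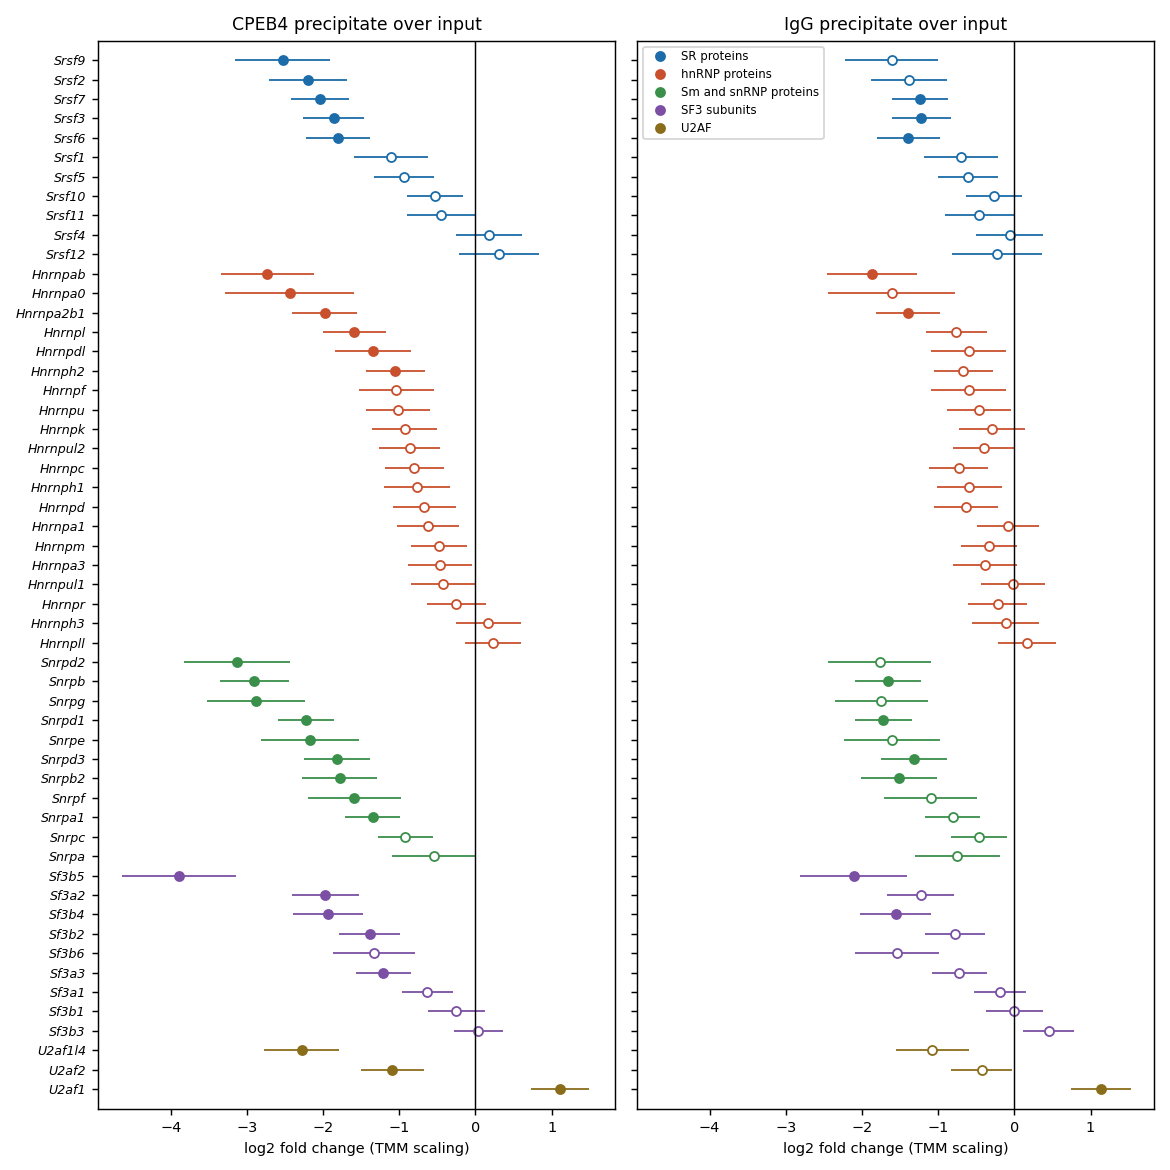
Log2 fold change (TMM scaling) with its standard error for the 54 members, CPEB4 precipitate over input on the left and IgG precipitate over input on the right. Filled points passed an adjusted p of 0.05 in edgeR. Both panels lean left of 0, with Sf3b5 lowest and U2af1 highest in each.

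**Figure D4:**
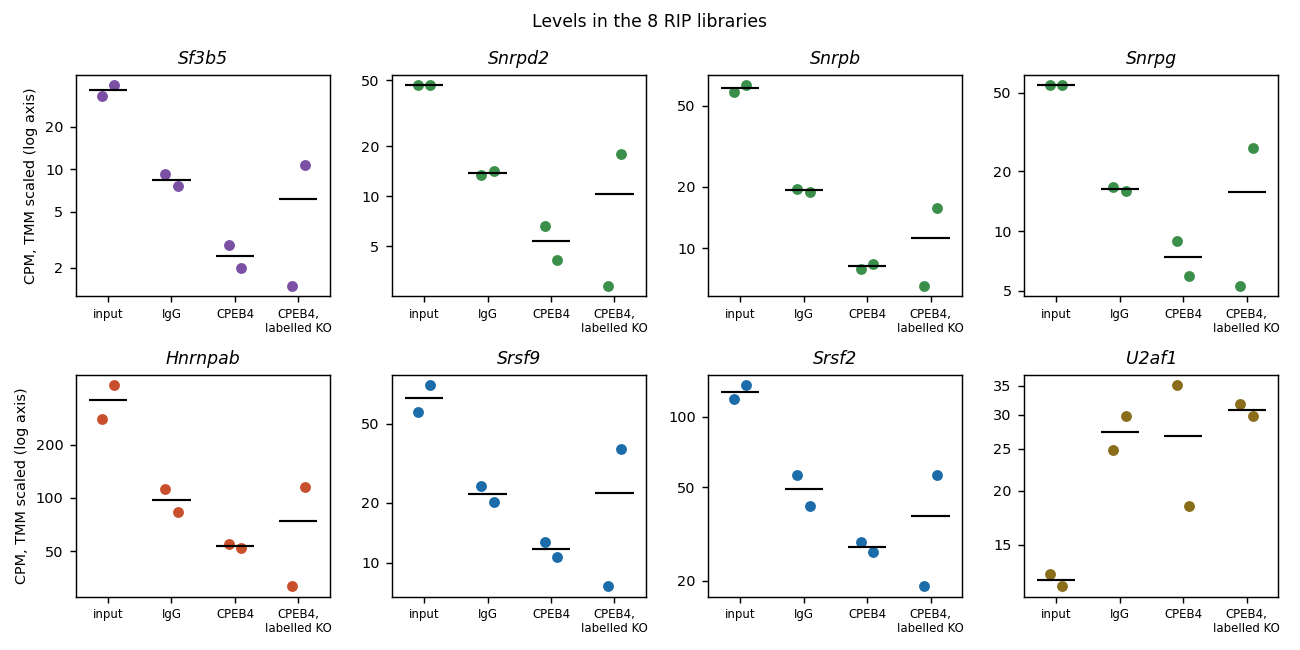
Level of 8 members in each of the 8 RIP libraries (CPM scaled by TMM, log axis), with points for the 2 replicates and a bar for their mean. The first 7 members are highest in the inputs and lowest in the wildtype CPEB4 precipitates or in replicate 1 of those labelled knockout, whereas U2af1 is lowest in the inputs.

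Wildtype CPEB4 precipitates were next compared with the CPEB4 precipitates labelled knockout. No member passed (0 of 54), and 0% of all genes were called in either direction by edgeR, with 136 genes and 0 members at an unadjusted p under 0.05, while DESeq2 called 0 members. The replicates labelled knockout differed by a median factor of 1.68 over the members, replicate 2 being higher for 43 of 54, and 20 members lay within 1.5-fold. In the wildtype CPEB4 precipitates 38 lay within 1.5-fold. Among the widest gaps, Snrpd2 had 2.87 and 17.9 CPM in them, Sf3b5 1.48 and 10.7 CPM, and Hnrnpa0 10.7 and 116 CPM, so that for these genes replicate 1 lay below and replicate 2 above the wildtype precipitates, whereas Sf3b1 had 63.3 and 58.2 CPM. Replicate 2 had a TMM factor of 0.4394, close to the 0.4278 and 0.5545 of the IgG libraries. The member median was -0.21 with both replicates, -0.50 without replicate 1 and 0.23 without replicate 2, so its direction differs with the library left out. By library totals it was 0.20 (all genes 0.19), with 45 of 54 above 0, so it also turns with the scaling.

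Gene span went along with the precipitate levels. Across the 54 members the log10 span and the log2 fold change of CPEB4 over input had Pearson's r of 0.72 (Spearman's rho 0.70), and those of IgG over input 0.65 (0.66). Over 15521 genes with a span these were 0.50 (0.64) and 0.37 (0.55), so that the relation is not particular to splicing genes. The 10 shortest members, with spans from 734 to 6188 bases, had a median log2 fold change of -2.08 for CPEB4 over input and -1.38 for IgG over input. The 10 longest, with spans from 25283 to 42333 bases, had -0.34 and -0.14. These values are descriptions across genes of the same libraries.

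**Figure D5:**
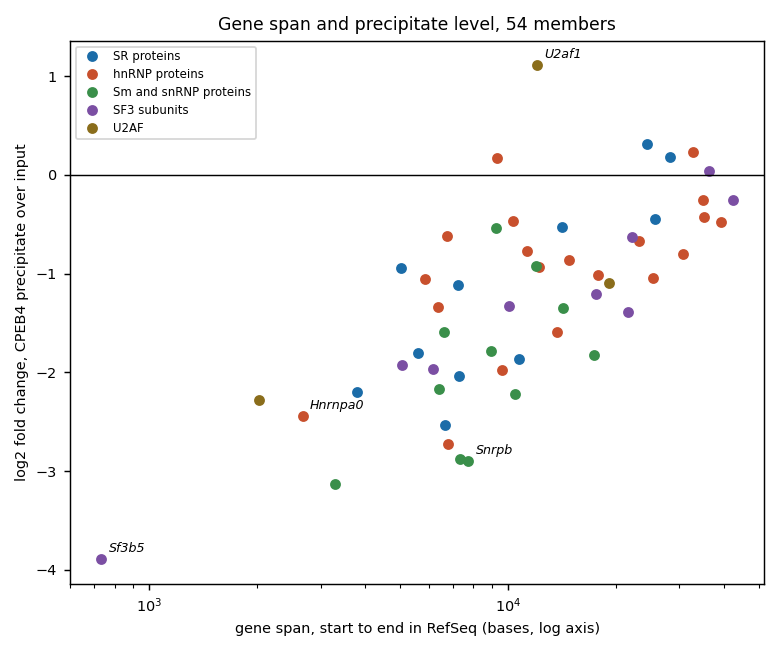
Gene span (bases, log axis) against the log2 fold change of the CPEB4 precipitate over input for the 54 members, coloured by family. Sf3b5, the shortest gene, lies lowest, and U2af1 lies above genes of similar span.

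The list of other splicing genes was read from the same fit. Of 101 tested, 28 were lower and 17 higher with CPEB4 against input, beside 27.6% and 27.4% of all genes. With IgG against input 13 were lower and 7 higher, beside 15.6% and 18.2% of all genes. The shares that were lower were thus near those of all genes. Against IgG, or between the wildtype precipitates and those labelled knockout, 0 passed, as for all genes (edgeR).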

How the data were processed

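Members and lists were chosen with earlier results of these data known. All values are whole-number counts of genes in cells, of hash tags, or of genes in RIP libraries, as deposited by the authors. Per the submitters' processing notes the build was mm10 and the tools were Cell Ranger, Bowtie2 and SAMtools, whose versions, cell filters and strand setting the sources used here do not give. Symbols came from a gene name table, and positions, spans and promoters from RefSeq (GRCm38.p6).

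For each culture, counts summed over its cells were scaled to CPM, with exact 95% intervals of the ratio, a pseudocount of 0.5 in log2 ratios and 10 or more counts. Precision of the cultures and fresh classes is counting error only. Fresh cells were given to a mouse with 10 or more tag counts of which 75% or more were of the same tag. They were clustered with scanpy 1.11.5 (2000 variable genes, 30 components, Leiden resolution 1) without members and without the lower gene of 297 neighbouring pairs (within 10000 bases, correlation over 0.3), and named from listed markers 1.3-fold or more higher (at least 3, and most of the list). The naming threshold was set after clusters were seen. Doublets and free RNA were not removed.

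RIP and mouse counts were tested with edgeR 4.0.16 (TMM, quasi-likelihood, adjusted p of 0.05) in R 4.3.3, and DESeq2 1.42.0 was an alternative. The fits were also run on simulated data, with the same mean profile for all libraries apart from added changes, and a fixed spread. Such data lack the composition differences between the RIP libraries, so they cannot speak to the scaling. Named members were, in the cultures, the 3 largest ratios each way per family with 100 or more counts; in RIP, up to 10 of the largest called changes without overlap; in fresh cells, the 8 with most counts. Proteins that the rule also names were not used here. Values of the culture and of the fresh tables were not scaled to each other.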

Additional observations from a re-analysis of the deposited data

Results flagged for a closer look

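Some members had log2 ratios of opposite sign under the same contrast in a pair of libraries. With 1 library each, the difference was not tested. In the log2 ratio of quiescent-like over active-like cells, Hnrnpul2 had 0.24 in the wildtype and -2.00 in the APLP1-/- library, Sf3b5 had 0.04 and -2.26, and U2af1l4 had 0.24 and -1.11. The wildtype counting intervals of the active-like over quiescent-like ratio held 1 (Hnrnpul2 0.397 to 1.69, Sf3b5 0.550 to 1.68, U2af1l4 0.246 to 2.50). So did the APLP1-/- interval of U2af1l4 (0.749 to 9.73), while those of Hnrnpul2 (1.81 to 12.3) and Sf3b5 (2.19 to 14.6) lay above 1. An opposite direction is thus not shown for these genes. In the log2 ratio of cells with over cells without cycle panel counts, Hnrnpa1 had -0.08 in the EGF and 0.48 in the BMP4 culture, Hnrnph2 -0.17 and 0.04, Sf3a3 0.46 and -0.16, Snrpb2 -0.01 and 0.12, and Sf3b6 0.08 and -0.05. Sf3b2 (0.12 in the EGF culture) and U2af1l4 (0.01 in the EGF culture) were at or just below 0 in the BMP4 culture. No group has enough samples for a test of outlying samples.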

How the results depend on the processing

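In the cultures, 18 members were 2-fold or more higher with EGF and 11 within cells without panel counts, with medians of -0.66 and -0.47 (-0.80 with TMM factors). Directions of named members turned for Hnrnpa0 (0.20), Hnrnph3 (0.00), Sf3b1 (0.05), Srsf6 (0.03) and Srsf12 (-0.26) in those cells, and for Srsf5 (-0.08) with TMM factors. The quiescent-like over active-like medians stayed negative: in the wildtype library -1.23 with TMM factors, -1.35 with 30 or more counts, and -1.33 and -1.21 at Leiden resolutions of 0.5 and 2, and in the APLP1-/- library -1.18, -1.22, -1.17 and -1.27.

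For CPEB4 against IgG, 3 members were lower when only these 2 groups were fitted, where 2.58% of all genes were. For CPEB4 against input, library totals gave 48 lower and 0 higher, no filter 0 higher, and leaving out a replicate 14 to 20 lower and 0 to 1 higher. For IgG against input, members lower numbered 18 with DESeq2 (2691 of 17062 genes) and 21 without a filter (4292 of 27144 genes). They numbered 21 with only the 2 groups (3737 of 15910 genes) and 53 by library totals (11176 of 17062 genes). Members higher numbered 0 without a filter and by library totals. With a replicate left out the member median for IgG against input lay between -0.91 and -0.68, and that of all genes between -0.24 and -0.10. The cause of these shifts was not tested.

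Replicate numbers did not pair the RIP libraries: deviations of same-numbered libraries correlated at -0.249 (CPEB4 and IgG), 0.103 (CPEB4 and input), -0.177 (IgG and input) and 0.222 (wildtype and labelled knockout). With the replicate block, 26 members were lower and 1 higher for CPEB4 against input, 10 lower and 0 higher for IgG against input, and 0 in the other comparisons. With the IgG numbers crossed, a pairing chosen after seeing the data, 18 were lower for IgG against input and 0 for CPEB4 against IgG. Library totals were also added after seeing the data. Hash tag numbers correlated at -0.013, 0.041 and -0.114, and that block gave 0 calls among the members.

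In the fresh mice 0 members were called under any alternative. Fold changes near 0 turned sign. Leaving out 1 mouse, Hnrnpa0 ranged from -0.21 to 0.23, Hnrnpa1 from -0.65 to 0.04, Hnrnpul1 from -0.01 to 0.43, Srsf10 from -0.23 to 0.56 and Srsf2 from -0.09 to 0.28. Hnrnpa0 was at -0.03 with DESeq2, -0.04 with RLE size factors and -0.02 with the tag as a block. With a tag share of 90%, Hnrnpa1 was at 0.24 and Srsf2 at -0.07, and with a tag minimum of 20, Hnrnpul1 was at -0.09, Srsf10 at -0.62 and Srsf2 at -0.01. Fresh depth, with a median of 364 and 424 counts per cell, limits the mouse comparison to 21 members.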
